A study of Mus musculus with 3 samples.

Results

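Of the 4877 barcodes in single-cell libraries of monocytes and macrophages from mouse skin wounds, 1864 had at least 200 detected genes and drew at least 10% of their unique molecular identifiers (UMIs, counted mRNA molecules) from genes encoded by the mitochondrial genome. These high-mitochondrial barcodes were chosen by that share, and a filter at 10% removes them. They numbered 560 at day 3, 512 at day 6 and 792 at day 10 after injury, which was 38.4% (exact Clopper-Pearson 95% interval 35.9 to 40.9%), 46.1% (43.2 to 49.1%) and 36.8% (34.7 to 38.8%) of all barcodes with at least 200 genes. The low-mitochondrial barcodes of the same libraries, with the same number of genes and a share under 10%, numbered 900, 598 and 1362. Barcodes under 200 genes (12, 86 and 55) were not used, and 12, 83 and 52 of those were at or over 10% as well.

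Each day was 1 droplet (10x Chromium) library of cells pooled from 2 wild-type male C57BL6/J mice, an inbred strain, whose wounds had been digested enzymatically and whose cells were loaded fresh at a viability stated as over 70%. The age of the mice and how the monocytes and macrophages were isolated are not given in the sources used here. The libraries held 9273960 to 13972817 UMIs, days 6 and 10 shared 2 barcode sequences, neither of them high-mitochondrial, and the other pairs of days shared 0. High- and low-mitochondrial barcodes of a day come from that 1 library, so a library effect is common to both. With 1 library a day, and with barcodes sorted by a value measured in them, no test was run and every difference is a description of these 3 libraries, whose intervals cover counting error only.

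The mitochondrial genome encodes a small set of respiratory chain proteins and is transcribed inside the organelle, while all other mRNA is made in the nucleus and, for the most part, translated in the cytoplasm. The share of mitochondrial transcripts is widely used to filter droplets, because it can be high in cells that have lost cytoplasmic mRNA. Monocytes enter a wound from the blood and mature there into macrophages, which clear debris and later support repair. Here the 13 genes whose names start with mt- were removed from all totals, so that levels are UMIs per 1000000 UMIs of all other genes (CPM). Those other genes are called nuclear genes for where they are encoded, and the term says nothing about where their RNA was in the cell.

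High-mitochondrial barcodes were shallow in nuclear genes, while their mitochondrial UMIs were as many or more. Their median nuclear UMIs were 1834, 2430 and 1592 at days 3, 6 and 10, against 10240, 11340 and 8013 in low-mitochondrial barcodes, or 5.58-, 4.67- and 5.03-fold lower. Median mitochondrial UMIs per barcode were 496, 713 and 406 against 409, 416 and 267, or 1.21-, 1.71- and 1.52-fold higher. Nearly all high-mitochondrial barcodes (557, 474 and 772) lay under the first quartile of nuclear UMIs of the low-mitochondrial barcodes of their library, and 1, 5 and 2 reached the median. The number of UMIs is the denominator of the share that chose the barcodes, so some difference in depth is part of the choice. Detected nuclear genes had medians of 912, 1097 and 814 against 2617, 2892 and 2394. After each barcode was thinned at random to 1000 nuclear UMIs, leaving out 56, 45 and 139 shallower high-mitochondrial and 7, 13 and 30 low-mitochondrial barcodes, the medians were 584, 578 and 575 genes against 583, 586 and 576, so at equal depth the number of genes detected was nearly the same.

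Across steps of mitochondrial share nuclear UMIs were lower at each step, on both sides of the limit. At day 3 median nuclear UMIs went from 11861 under 5% to 6006 at 5 to 10%, 2212 at 10 to 20% and 1574 at 20 to 40%, while median mitochondrial UMIs were 399, 437, 408 and 562. Barcodes just under the limit (9 to 10%, 36, 28 and 41 of them) had median nuclear UMIs of 4061, 3999.5 and 3136, and those just over it (10 to 11%, 20, 36 and 48) had 2719.5, 3348 and 2311. The same pairs had 50012 and 97492 CPM of the ribosomal RNA-like Gm42418 at day 10 and 41479 and 44178 at day 3, so the size of the step at the limit varied. Malat1 went from 23513 CPM at 5 to 10% to 71642 at 10 to 20% at day 3. The median share among high-mitochondrial barcodes was 20.2, 21 and 19.7%, and few were extreme, with 2, 23 and 15 barcodes at 60% and over. The makeup of the mitochondrial UMIs was close in both classes. At day 3 the largest contributor, the cytochrome oxidase subunit gene mt-Co3, gave 21.9% of mitochondrial UMIs in high- and 22.1% in low-mitochondrial barcodes, and mt-Nd1, a complex I subunit gene, gave 4.31% and 4.32%.

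**Figure D1:**
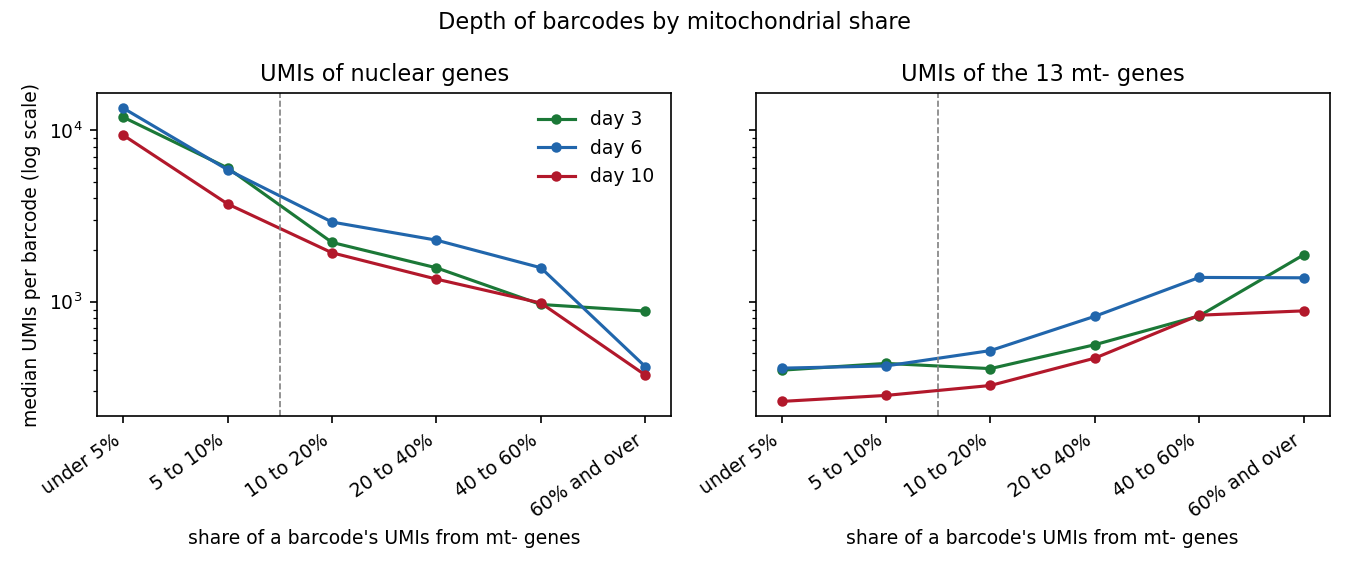
Median UMIs per barcode (log scale) from nuclear genes (left) and from the 13 mitochondrial genes (right) by the share of mitochondrial UMIs, with 1 line a day and the 10% limit dashed. Nuclear UMIs go down at every step, whereas mitochondrial UMIs at day 3 stay at 399 to 437 up to 20% and are higher beyond, and the last step holds 2, 23 and 15 barcodes.

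The missing nuclear UMIs were not spread evenly over kinds of RNA. Malat1, a long non-coding RNA that stays in the nucleus (ENSMUSG00000092341, chromosome 19, 5795690 to 5802672, mm10), made up 8.02, 7.69 and 11.4% of nuclear UMIs in high-mitochondrial barcodes and 1.58, 1.62 and 2.88% in the others, a log2 ratio of 2.34, 2.25 and 1.99 at days 3, 6 and 10. Counted per barcode it was about level, at a mean of 163, 217 and 204 UMIs against 165, 189 and 248. All nuclear genes other than Malat1 and the ribosomal RNA-like models below were 6.03-, 5- and 6.02-fold lower per barcode. Neat1, the nuclear RNA that scaffolds paraspeckles, stood at 2142, 1216 and 2022 CPM against 906, 537 and 743 (log2 1.24, 1.18 and 1.44). Kcnq1ot1, a nuclear antisense RNA of an imprinted locus, stood at 53.7, 70.0 and 125 against 32.1, 48.9 and 54.3 CPM, and among 4 measured members of the list of nuclear-retained RNA, Malat1 and Neat1 were at least 1.5-fold higher in each library and 0 lower.

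UMIs assigned to 3 ribosomal RNA-like gene models were the other large component. Gm42418 (ENSMUSG00000098178, chromosome 17, 39846958 to 39848788), Gm26917 (39843013 to 39846341) and AY036118 (39847113 to 39848035, on the opposite strand inside Gm42418) lie beside or over each other, so the split between them is uncertain. Together they made up 9.22, 12.4 and 12% of nuclear UMIs in high-mitochondrial barcodes against 1.27, 2.11 and 1.54%, and per barcode they were 1.42-, 1.42- and 1.61-fold higher. Gm26917 had the largest ratio of the 3, at 6232, 8604 and 9419 CPM against 238, 299 and 186 (log2 4.71, 4.85 and 5.66). In single steps of share Gm26917 went from 137 CPM under 5% to 553, 3812, 15986 and 40109 at day 10. Lars2, a mitochondrial leucyl-tRNA synthetase gene, was also among the highest, at 1968, 2417 and 2656 CPM against 264, 354 and 267.

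**Figure D2:**
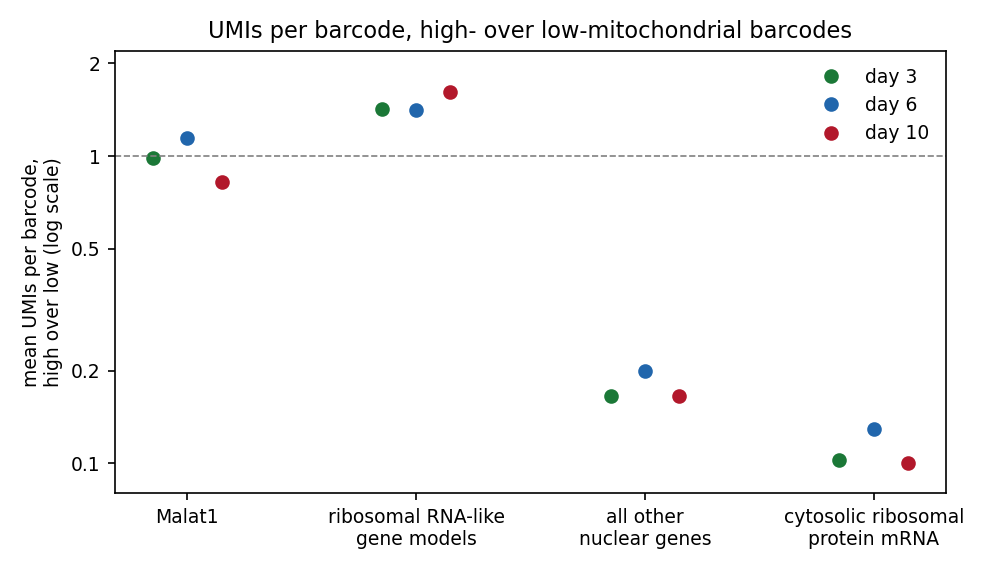
Mean UMIs per barcode in high-mitochondrial over low-mitochondrial barcodes (log scale, 1 point a day, dashed line at equal). Malat1 lies at 0.823 to 1.14 and the ribosomal RNA-like models at 1.42 to 1.61, while all other nuclear genes lie at 0.166 to 0.2 and ribosomal protein mRNA at 0.1 to 0.129.

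Over 9754 nuclear genes with at least 20 UMIs in each library, 1985 (20.4%) were at least 1.5-fold higher in CPM in high-mitochondrial barcodes in each library and 956 (9.8%) at least 1.5-fold lower. Day by day, 37.1% of genes were higher and 19.1% lower at day 3, 29.6% and 17% at day 6, and 37.1% and 20.4% at day 10. The median gene had a log2 ratio of 0.29, 0.19 and 0.28, and counts of list members below are to be read against these shares. Scaling and the minimum of UMIs both change the balance between the directions. With at least 100 UMIs in each library, 1267 of 6738 genes were higher and 879 lower. Because of the floor of 3 UMIs and the larger low-mitochondrial totals, genes near the minimum of 20 UMIs can be called higher but hardly lower. With TMM factors, which centre the ratios on the bulk of the genes and shift every log2 ratio by −0.46, −0.34 and −0.48, 807 genes were higher and 1899 lower, and with Malat1 and the ribosomal RNA-like models out of the totals 3071 were higher and 557 lower. Among barcodes of the same cluster (3, 5 and 8 clusters with at least 10 barcodes of both classes) 7670 genes were measured, and 317 were higher and 398 lower in each library, 245 and 297 of them also over all barcodes. The clusters were drawn from these same genes, so both classes of a cluster resemble each other by choice. Smaller ratios within clusters, here and below, are therefore partly built in.

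The ratio went with transcript length. When 9523 protein-coding genes were split into 5 groups of equal size by their longest annotated transcript (GENCODE vM21), the shortest group, with a median of 1394 bases, had a median log2 ratio of −0.53, −0.42 and −0.62 at days 3, 6 and 10, and the longest group, with a median of 6785 bases, had 0.84, 0.58 and 0.78. In the shortest group 5.72% of genes were at least 1.5-fold higher in each library and 29.7% lower, and in the longest 39.9% were higher and 0.945% lower. The groups between lay in order. Exon number gave a similar trend, with 43.2% of the group with most exons higher and 0.525% lower. Macf1, a giant cytoskeletal crosslinker, stood at 501, 492 and 622 CPM against 101, 159 and 131, Golgb1, which encodes the Golgi matrix protein giantin, at 171, 179.6 and 248 against 31.4, 46.2 and 54.7, and Utrn, which encodes utrophin, at 69.6, 93.6 and 173 against 17.5, 27.3 and 30.2. Of 15 genes of GTPase signalling, cytoskeleton and adhesion, whose longest transcripts have a median of 7805 bases, 6 were higher in each library and 0 lower (median log2 0.81, 0.57 and 0.96), and Vim, the intermediate filament gene with the shorter mRNA, had log2 ratios of −1.08, −0.55 and −1.28.

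The trend did not rest on ribosomal or respiratory genes. Without those the shortest group had medians of −0.48, −0.38 and −0.58, and among genes with at least 100 UMIs in each library the groups ran from −0.67, −0.52 and −0.76 to 0.85, 0.56 and 0.75. It was already present below the limit. At day 10 barcodes at 5 to 10% set against those under 5% had medians of −0.18 in the shortest and 0.41 in the longest group, compared with −0.55 and 0.75 at 10 to 20% and −0.63 and 0.98 at 20 to 40%. Within clusters, comparing high- with low-mitochondrial barcodes of the same cluster, the medians ran from −0.43, −0.38 and −0.50 to 0.33, 0.31 and 0.47. Long non-coding RNA genes of the lincRNA class were at least 1.5-fold higher in 44 of 124 cases and lower in 5, and antisense genes in 39 of 90 and 5, where strand was not checked and UMIs of a gene and its antisense partner may not be told apart.

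**Figure D3:**
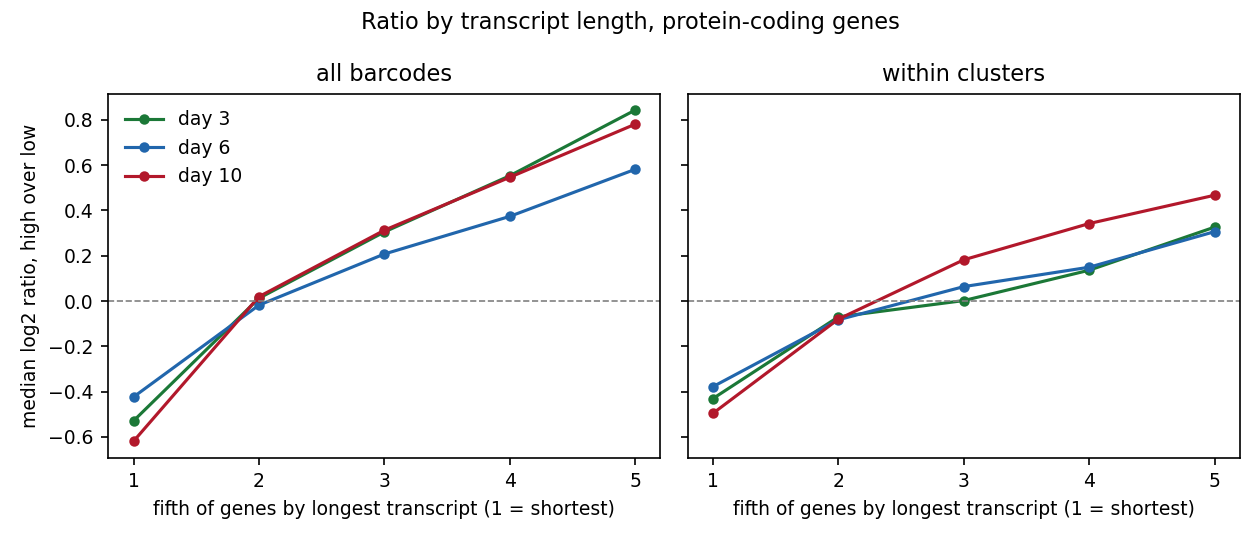
Median log2 ratio of CPM, high- over low-mitochondrial barcodes, in 5 equal groups of protein-coding genes by longest annotated transcript, over all barcodes (left) and within clusters (right), with 1 line a day. The medians go up with every group on each day, and the range from the shortest to the longest is smaller within clusters.

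Genes for the translation machinery and for common cytoplasmic proteins were lower. Cytosolic ribosomal proteins, whose mRNAs are short and abundant, were at least 1.5-fold lower in each library for 61 of 83 measured members and higher for 0 (median log2 −1.05, −1.03 and −1.15). Per barcode their mRNA was 9.74-, 7.73- and 9.97-fold lower. Rps15a stood at 466, 549 and 524 CPM against 2275, 2267 and 2473 and Rps7 at 313, 461 and 469 against 1810, 1970 and 2120. Other members went the opposite way, with Rpsa at 3037, 3779 and 3750 CPM against 2425, 2687 and 2472 and Rpl36 at log2 0.47, 0.30 and 0.33, though ribosomal protein genes have many processed copies that can take UMIs. The few barcodes at 60% and over differed by day, with ribosomal protein mRNA at 52184 CPM against 68349 at 40 to 60% at day 3, on 2 barcodes, but 141133 and 142642 CPM at days 6 and 10 against 81308 and 67671. Of 20 abundant cytoplasmic mRNAs, 16 were lower in each library and 0 higher. The actin gene Actg1 stood at 1575, 1484 and 1188 CPM against 5657, 3830 and 3498 and the ferritin gene Fth1 at 3356, 5547 and 5224 against 10099, 16375 and 23185, whereas Eef2, the translocation factor of the ribosome, was at 454, 574 and 532 against 461, 645 and 541 and the actin-binding coronin gene Coro1a at log2 −0.30, −0.29 and −0.06.

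Nuclear genes that serve the mitochondrion did not all go the same way. Of 35 respiratory chain subunits, 22 were lower in each library and 0 higher (median log2 −1.11, −0.89 and −1.23), so the nuclear-encoded subunits of the same complexes were low in the barcodes whose mitochondrial share is high. Cox8a, a cytochrome oxidase subunit, stood at 187, 205 and 164 CPM against 832, 629.9 and 735, and Atp5c1, of ATP synthase, at 70.4, 77.7 and 58.1 against 315, 264 and 258. The complex I gene Ndufs1 had log2 ratios of 0.62, 0.49 and 0.38. Of 77 mitochondrial ribosomal proteins, 28 were lower and 1 higher, Mrps6 (log2 1.54, 1.08 and 1.28). The import receptor gene Tomm22 was at 29.1, 47.9 and 26.9 CPM against 154, 129 and 143, and of 17 import and chaperone genes 6 were lower and 1 higher, the protease gene Lonp1 (log2 0.78, 0.68 and 0.83). Genes that copy and express the mitochondrial genome went the other way, with 7 of 17 higher and 1 lower (median log2 0.69, 0.51 and 0.86). Twnk, the helicase of mitochondrial DNA, stood at 11.4, 11.1 and 9.2 CPM against 2.99, 3.58 and 3.5, on 13, 16 and 13 UMIs in high-mitochondrial barcodes, and the member that was lower was Slirp, an RNA-binding partner in mitochondrial mRNA stability (log2 −1.22, −1.21 and −1.50). The median longest transcript was 1661 bases in the respiratory chain list and 3488 in the gene expression list. Beside the trend by length, which moves the same way, a part for the genes' roles was not tested.

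Histone genes of the replication-dependent clusters, a set added after their values were seen, were higher in each library for 25 of 29 measured members and lower for 0 (median log2 3.04, 2.08 and 3.01). The linker histone gene Hist1h1e stood at 168, 97.8 and 269 CPM against 22.9, 14.3 and 26.2 and Hist1h1d at 74.9, 107 and 166 against 8.43, 11 and 14.2. Most mRNAs of these genes lack a poly(A) tail, which the assay captures, and their copies are near-identical, so members are uncertain one by one.

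UMIs of all 5 myeloid markers set for the comparison were found in high-mitochondrial barcodes, at levels that differed marker by marker. The longest transcripts of the 5 have a median of 1482 bases, and the part of transcript length in their ratios was not tested. A UMI can also come from free RNA, so shares of barcodes are set beside those of cluster 12, a dendritic-cell-like cluster. Its barcodes were far deeper before thinning than high-mitochondrial ones. Its shares therefore do not measure free RNA in shallow barcodes, for any marker below. Ly6c2, a surface antigen of inflammatory monocytes (ENSMUSG00000022584, chromosome 15, 75108158 to 75111970), stood at 236, 27 and 17.7 CPM at days 3, 6 and 10 against 593, 61.5 and 73.6 in low-mitochondrial barcodes. It was lower on each day, with log2 ratios of −1.33 (−1.51 to −1.15), −1.19 (−1.70 to −0.71) and −2.06 (−2.69 to −1.48), and in both classes it was highest at day 3. Thinned to 1000 nuclear UMIs, 14.7%, 1.93% and 1.68% of high- and 31.4%, 3.76% and 3.75% of low-mitochondrial barcodes held a Ly6c2 UMI, against 9.52% (3.58 to 19.6%), 0% (up to 8.41%) and 1.28% (0.0325 to 6.94%) of thinned low-mitochondrial barcodes in the dendritic-cell-like cluster 12. The shares of high-mitochondrial barcodes (11.7 to 18.1%, 0.885 to 3.63% and 0.844 to 2.99%) overlap these intervals, so by share Ly6c2 is not clearly above cluster 12.

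C1qa, a complement subunit made by macrophages (ENSMUSG00000036887, chromosome 4, 136895917 to 136898803), was within 1.5-fold on each day. It stood at 251, 1189 and 945 CPM against 299, 1315 and 1291, with log2 ratios of −0.25 (−0.43 to −0.08), −0.15 (−0.22 to −0.07) and −0.45 (−0.53 to −0.37), and both classes carried far less at day 3 than later. Thinned shares were 13.1%, 44.1% and 35.1% against 12.4%, 39.3% and 41.7%, which at days 3 and 6 do not follow the order of the CPM, so no order is read from them. In the dendritic-cell-like cluster led by Ccr7 (cluster 12), which should lack the gene, 0%, 0% and 1.28% of 63, 42 and 78 thinned low-mitochondrial barcodes held a UMI, at median depths before thinning of 15231, 17114.5 and 14266 nuclear UMIs against 1938, 2544 and 1758 in the thinned high-mitochondrial barcodes. At a limit of 5% the C1qa ratio was 0.67, 0.32 and 0.43, and within clusters it was −2.45, −0.87 and −0.23. Over the alternative settings it ran from −2.45 to 0.67 at day 3, from −0.87 to 0.32 at day 6 and from −1.27 to 0.43 at day 10, so no direction is read for it.

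Cd209a, a lectin of monocyte-derived dendritic cells (ENSMUSG00000031494, chromosome 8, 3743397 to 3748984), was nearly missing. It stood at 10.6, 25 and 34.7 CPM against 339, 273 and 300.1, on 12, 36 and 49 UMIs, or 32.1-, 10.9- and 8.65-fold lower . The log2 ratios were −5.00 (−5.96 to −4.20), −3.45 (−3.97 to −2.98) and −3.11 (−3.55 to −2.71). Low-mitochondrial barcodes carried it mainly in dendritic-cell-like clusters, named from their markers and numbered 10 and 12, which had 21 high-mitochondrial barcodes among 473. Without those clusters the log2 ratio was −1.93, 0.32 and 1.44, so the sign changed at days 6 and 10. Within clusters it was 0.58, −1.56 and −0.87, where the value at day 3 sits at the floor of 3 UMIs. Of the 12 UMIs of high-mitochondrial barcodes at day 3, cluster 9 held 7 and cluster 5 held 2. Neither cluster could be compared on that day, so no direction is read from the 0.58. Thinned shares were 0.595%, 1.71% and 2.91% of high- and 10.2%, 11.1% and 9.23% of low-mitochondrial barcodes. Outside clusters 10 and 12 the latter were 1.58%, 0.881% and 0.61%. The part of free RNA in these low shares was not tested.

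Mmp12, the macrophage elastase (ENSMUSG00000049723, chromosome 9, 7344381 to 7369499), was near level at days 3 and 6 and lower at day 10, at 78.4, 990.3 and 209.6 CPM against 90.1, 1049 and 813. The log2 ratios were −0.20 (−0.53 to 0.12), −0.08 (−0.17 to −0.00) and −1.96 (−2.13 to −1.79). Among high-mitochondrial barcodes it thus stood highest at day 6, while the low-mitochondrial barcodes held similar levels at days 6 and 10. Thinned shares were 1.19%, 11.6% and 6.28% against 1.01%, 15.6% and 14.3%, and 0%, 4.76% and 3.85% in cluster 12. Its ratio at day 3 ran from −2.22 to 2.07 over the alternative settings, on 89 UMIs, so no direction is read there.

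Arg1, the arginase of wound macrophages (ENSMUSG00000019987, chromosome 10, 24915221 to 24927484), stood at 697, 678 and 1060 CPM against 895, 1188 and 3034, with log2 ratios of −0.36 (−0.47 to −0.25), −0.81 (−0.91 to −0.71) and −1.52 (−1.59 to −1.44). Both classes had their highest level at day 10, where they were also furthest apart. A UMI was held by 20%, 19.7% and 26.2% of thinned high- and 27%, 37.9% and 58.6% of thinned low-mitochondrial barcodes, against 3.17%, 0% and 2.56% in cluster 12. Within clusters the Arg1 ratio was −0.31, 0.40 and 0.04, so at days 6 and 10 it was not lower among the barcodes that could be compared within a cluster. These were 454 of 560, 281 of 512 and 570 of 792 high-mitochondrial barcodes. Since clusters were drawn from these genes, the values do not show why Arg1 was lower over all barcodes. Among others the compared barcodes left out cluster 5 on each day, cluster 9 at days 3 and 6, cluster 1 at day 3 and cluster 0 at day 6. At a limit of 20% the ratio was −1.90, −1.49 and −2.74. Any of the 5 markers was seen in 40.1%, 61.9% and 54.1% of thinned high- and 64.6%, 76.1% and 82.7% of low-mitochondrial barcodes.

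**Figure D4:**
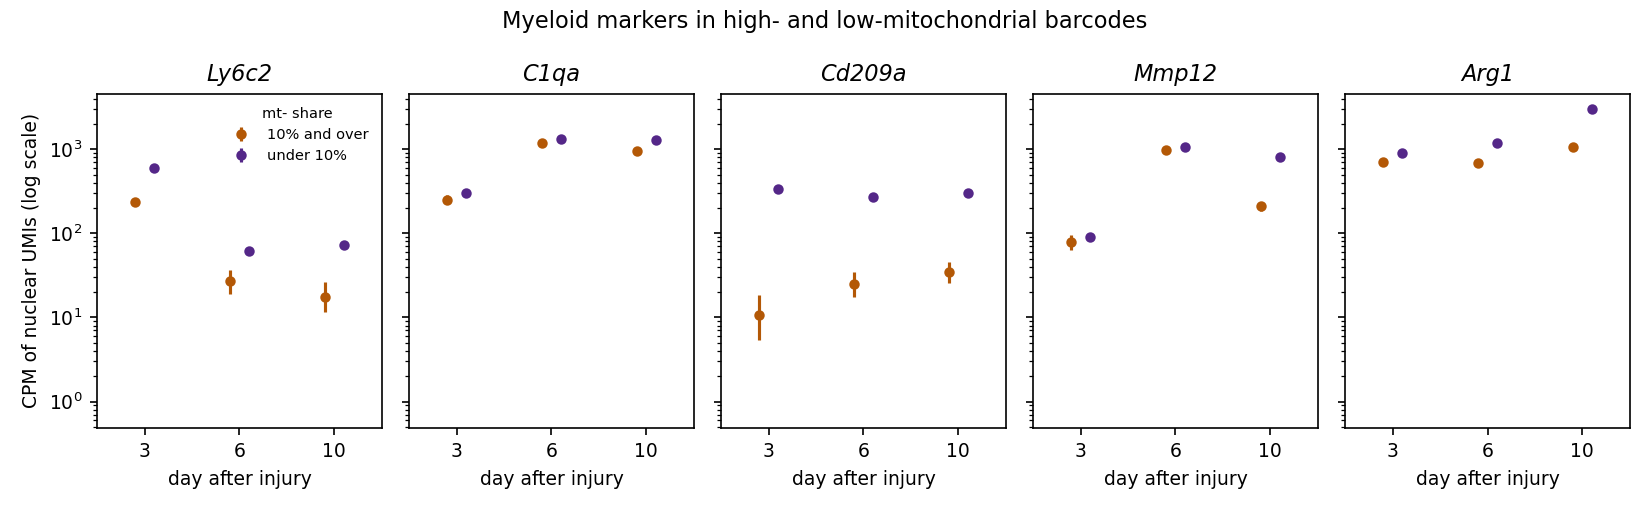
CPM of nuclear UMIs (log scale) of 5 myeloid markers by day in high-mitochondrial (10% and over) and low-mitochondrial (under 10%) barcodes, 1 library a day, with bars for exact Poisson 95% intervals that cover counting error only. Cd209a is 8.65- to 32.1-fold lower on each day, Ly6c2 2.28- to 4.16-fold lower, C1qa within 1.37-fold, and Mmp12 and Arg1 are furthest apart at day 10.

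General markers of the labelled cells were found among high-mitochondrial barcodes. All 25 monocyte and macrophage markers had UMIs on each day and summed to 21029, 26183 and 23534 CPM against 31015, 26331 and 34543. At day 10 all 14 dendritic cell, 9 fibroblast and 6 skeletal muscle markers had UMIs in them as well. Finding a UMI of each marker in such a pool therefore does not tell cell types apart. Of 14 classical monocyte genes, 4 were lower in each library (Ly6c2, Plac8, Ms4a4c and Gm9733) and 0 higher, with Plac8, a gene of circulating monocytes, at 327, 38.8 and 51 CPM against 2146, 373 and 373, while F10, a coagulation factor gene, was at 560.1, 174 and 193 against 327, 137 and 187. Of 16 mature macrophage genes, 3 were higher (Mrc1, Mertk and Cx3cr1) and 1 lower, the lysosomal glycoprotein gene Cd68. The fractalkine receptor gene Cx3cr1 had log2 ratios of 1.32, 1.31 and 0.95, the mannose receptor gene Mrc1 stood at 446, 671 and 697 CPM against 239, 402 and 323, and the chemokine gene Pf4 at 623, 849.5 and 996 against 681, 1850 and 2889. Of 13 genes of resident dermal macrophages, 4 were higher and 0 lower (median log2 0.85, 0.57 and 0.64), with Maf, Cbr2 and Selenop among those higher. The transcription factor gene Maf stood at 568, 667 and 529 CPM against 201, 282 and 246, and the haemoglobin scavenger receptor gene Cd163, another member, stood at 15.9, 127 and 78.6 against 6.19, 85.3 and 33.9, just under the threshold at day 6. Within clusters, taking each gene's median of the 3 days, the median of this list was −0.25, Maf had −0.13 and Cbr2, a carbonyl reductase gene, −1.22. The list as a whole was thus not higher among the barcodes compared within a cluster, which left out, among others, cluster 1 at day 3 and cluster 5 on each day. At day 3, 397 of the 454 high-mitochondrial barcodes compared lay in cluster 0, against 22 low-mitochondrial ones there. Clusters were drawn from these genes, so the values do not show why the list was higher over all barcodes.

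Retnla, a secreted product of macrophages activated by interleukin 4 (ENSMUSG00000061100, chromosome 16, 48842551 to 48844461), stood out for its ratio. It stood at 262, 1928 and 1743 CPM against 36.7, 197 and 488, with log2 ratios of 2.84 (2.61 to 3.07), 3.29 (3.20 to 3.39) and 1.84 (1.77 to 1.90). Thinned to 1000 nuclear UMIs, 2.98%, 13.7% and 16.2% of high- and 0.224%, 2.39% and 2.1% of low-mitochondrial barcodes held a UMI. Day 3 was the lowest in both classes, and from 20% of mitochondrial UMIs upward at day 6 Retnla was at 3525, 2523 and 4742 CPM in the 3 steps. As a list, alternative activation genes were not of 1 kind, with 3 of 12 higher in each library (Retnla, Mrc1 and the interleukin 4 receptor gene Il4ra) and 4 lower (Mgl2, Cd209a, Socs3 and Il10). Among 15 lipid-associated macrophage genes 0 were higher and 2 lower in each library, the galectin gene Lgals3 (log2 −0.89, −1.01 and −1.64) and the fatty acid carrier gene Fabp5 (log2 −0.60, −1.29 and −1.39), with the lipoprotein lipase gene Lpl at log2 0.92, 0.17 and 1.47. Among 20 lysosome genes 1 was higher (Atp6v0c, which has near-identical copies) and 2 lower, among them the cholesterol carrier gene Npc2, and the cathepsin gene Ctsd and the progranulin gene Grn had log2 ratios of 1.17, 0.80 and 0.23 and of 1.2, 0.99 and 0.42.

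Several secreted inflammatory signals were lower. The median longest transcript was 1295 bases in the chemokine list and 2272 in the cytokine list, and the part of transcript length in these ratios was not tested. Interleukin 1 beta (Il1b) stood at 1253, 255 and 415 CPM against 4175, 1802 and 2124 and Il1a at 6.16, 16.6 and 15.6 against 48.3, 76.6 and 71.1, on 7, 24 and 22 UMIs. Of 11 inflammatory cytokine genes, 4 were lower in each library (Il1b, Il1a, Il6 and Osm) and 0 higher, with Tnf at log2 0.36, −1.21 and −0.10. Among 15 chemokine genes 6 were lower (Ccl2, Ccl3, Ccl4, Ccl5, Cxcl1 and Cxcl3) and 0 higher. The neutrophil attractant gene Cxcl1 stood at 44.9, 114 and 55.9 CPM against 160.1, 513 and 412 and Ccl4 at 763, 298 and 152 against 1840, 1162 and 603, while Ccl8, a monocyte attractant, was at least 1.5-fold higher at day 3 only (log2 2.88, 0.52 and 0.48). Within clusters, again by the median of the 3 days, Il1b had −0.52 and the cytokine list 0.10. Of 19 interferon response genes, 2 were higher in each library and 1 lower. Slfn4, a Schlafen gene of myeloid cells, stood at 1647, 119 and 47.4 CPM against 321, 39.8 and 11.7 and the interferon amplifier Irf7 at 814, 198 and 88.5 against 405, 112 and 47.7, whereas Bst2, which tethers budding viruses, stood at 254, 113 and 74.3 against 615, 255 and 173.

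MHC class II genes, which present antigen, were lower in each library for 7 of 10 members and higher for 0 (median log2 −1.98, −1.52 and −0.91). Their longest transcripts have a median of 1576 bases, and the part of transcript length in these ratios was not tested. The peptide loader gene H2-DMa stood at 68.7, 107 and 117 CPM against 339.6, 525 and 357. H2-Oa had 0, 6 and 2 UMIs in high-mitochondrial barcodes, with 21.6, 68.3 and 33.7 CPM in the others. With a floor of 3 UMIs per class and library it was at least 8.16-fold lower at day 3. The main beta chain gene H2-Ab1 was closer, at 1464, 2977 and 3314 CPM against 3133, 5619 and 3860, and the class II master regulator gene Ciita was higher at day 10, at 103, 153 and 286 against 69.8, 121 and 92.7. Much of this list moved with the dendritic-cell-like clusters, since without clusters 10 and 12 the list's median over each gene's median of the 3 days was −0.09, while H2-Ab1 had 0.66 and H2-DMa −1.16.

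Genes of cell death and stress showed no common direction. Of 22 BCL2 family and other cell death genes, 5 were lower in each library and 0 higher. The 5 were Bax and Bak1, which permeabilise mitochondria, and 3 Bcl2a1 copies. The survival gene Bcl2a1b, which has near-identical copies, stood at 79.3, 91.5 and 72.2 CPM against 245, 313 and 245, and Apaf1, the apoptosome core, was at log2 1.23, 0.40 and 0.71. Among 13 pyroptosis and inflammasome genes 5 were lower (Il1b, Il1a, Casp1, Pycard and Gsdme) and 0 higher, yet Nlrp1b, an inflammasome sensor outside that list with near-identical neighbours, had the largest median ratio among the abundant genes with established names, at 42.3, 40.2 and 108 CPM against 3.41, 5.15 and 7.42. Of 11 targets of p53, 2 were higher (Sesn1 and Trp53inp1) and 0 lower, with Sesn1 at 29.9, 64.5 and 70.1 CPM against 10.7, 19.8 and 17.3 and the cell cycle inhibitor gene Cdkn1a at log2 −0.17, −1.18 and −1.22. Among 12 genes of the integrated stress response 0 were higher and 0 lower in each library. The chaperone genes Hspa1a and Hspa1b, which are near-identical, were higher at days 3 and 10 and level at day 6 (log2 1.13, −0.00 and 1.34 and 1.49, 0.26 and 1.72), and of 11 heat shock genes 1, the transcription factor gene Hsf1, was higher in each library and 0 lower. Of 20 immediate early genes, 0 were higher and 2 lower (Ier3 and Zfp36), with Jun at log2 1.09, 0.55 and 0.97. Among 16 endoplasmic reticulum chaperones 3 were lower (Sdf2l1, Manf and Pdia6) and 0 higher, with Sdf2l1 at 27.3, 23.6 and 13.5 CPM against 176, 62.1 and 65 and Calr at log2 0.16, 0.19 and 0.43.

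Metabolic lists were mixed as well. Glycolysis genes were higher in 1 of 16, the hexokinase gene Hk2 (log2 1.17, 0.71 and 0.72), and lower in 4 (Gapdh, Pgk1, Pgam1 and Eno1), with the enolase gene Eno1 at 239.5, 202 and 246 CPM against 709.7, 474 and 779. Of 14 hypoxia response genes, 2 were lower (Ankrd37 and Higd1a) and 0 higher. The list's median was near level at day 3 and lower later (−0.02, −0.65 and −1.10), and the mitophagy receptor gene Bnip3 had log2 ratios of −0.42, −0.93 and −1.51. Of 14 antioxidant genes, 4 were lower (Sod2, Prdx1, Txn1 and Gsr) and 0 higher. The mitochondrial superoxide dismutase gene Sod2 stood at 88.9, 88.1 and 64.4 CPM against 226, 178 and 219, while Gpx4, which detoxifies lipid peroxides, was at log2 0.60, 0.64 and 0.02. Iron and heme genes were lower in 2 of 14, the ferritin genes Fth1 and Ftl1, and higher in 0. Mitophagy and mitochondrial dynamics genes were higher in 1 of 13, the kinase gene Tbk1, and lower in 0. Among cell cycle genes, 0 of 14 for S phase were higher and 1 lower (Dut), and 0 of 10 for G2/M were higher and 1 lower (Ccnb2).

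When all barcodes with at least 200 genes were clustered without mitochondrial genes, high-mitochondrial barcodes mostly gathered in clusters of their own. Of 15 clusters, clusters 0, 1, 5 and 9 were over 75% high-mitochondrial (93.7%, 82.0%, 95.9% and 93.1%) and held 1527 of the 1864. They took 85.5%, 76.0% and 83.2% of the high-mitochondrial barcodes at days 3, 6 and 10 and 2.78%, 7.53% and 6.54% of the low-mitochondrial ones. At resolutions of 0.4 and 1.2 clusters over 75% high-mitochondrial held 62.4% and 71.7% of them. Malat1 and the ribosomal RNA-like models entered the clustering, and their part in this separation was not tested. The median nuclear UMIs of the 4 clusters were 0.338 to 0.484 of their libraries' median. The ribosomal RNA-like Gm26917 was among the leading genes of clusters 0, 5 and 9, but not of cluster 1. By its markers cluster 0 was named monocyte/macrophage-like, and clusters 1, 5 and 9 received no name, so the 4 are described by number.

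Each of the 4 carried its own myeloid pattern, given as a description because the clusters were drawn from these genes. Cluster 0, led by Slfn4 and the chemokine gene Ccl5, held 397 of the 560 high-mitochondrial barcodes at day 3 (70.9%). Its high-mitochondrial barcodes at day 3 had 247 CPM of Ly6c2, 855 of the monocyte chemokine receptor gene Ccr2, 724 of the interferon-induced Isg15 and 443 of Arg1. On that day they had 0 UMIs of Mmp12, of Cd209a and of the vessel-associated macrophage receptor gene Lyve1 (exact Poisson 95% upper limit 4.91 CPM). At days 6 and 10 cluster 0 had 2 and 5 UMIs of Mmp12 and 0 and 1 of Cd209a. Of the 268 Ly6c2 UMIs of high-mitochondrial barcodes at day 3 this cluster held 186.

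Cluster 1, led by Lyve1, Igfbp7 and Ccl8, held 181 of 512 at day 6 (35.4%) and 207 of 792 at day 10 (26.1%), and 21 of 560 at day 3. Its high-mitochondrial barcodes had 2087 and 1496 CPM of C1qa at days 6 and 10, above the class as a whole, and 13032 and 15420 of the lipid carrier gene Apoe. Cd163 stood at 310.3 and 145 CPM and Arg1 at 568 and 1881. Ly6c2 had 2 and 1 UMIs. Sparc, Plvap and Aqp1, genes of stroma and vessels, were also among its leading genes.

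Among high-mitochondrial barcodes cluster 5 held most Retnla, with 241 of 298, 2515 of 2780 and 2395 of 2462 UMIs. Low-mitochondrial barcodes held 344, 1376 and 5723 UMIs, and their cluster 14 (44 barcodes, 4.55% high-mitochondrial) also had Retnla as its leading gene. In cluster 5 the high-mitochondrial barcodes (99 at day 6 and 210 at day 10) had 9976 and 6754 CPM of Retnla, with 833 and 956 of Ccr2 and 5823 and 4385 of H2-Ab1, and little Arg1 (27.8 and 47.9). Cluster 9 (40, 82 and 146 high-mitochondrial barcodes) was rich in MHC class II, at 7770, 8600 and 8272 CPM of H2-Ab1 and 624, 576 and 746 of Ciita. It held 57 of the 97 Cd209a UMIs of high-mitochondrial barcodes over the 3 days. Flt3, a receptor of dendritic cells, was at 52, 38.7 and 32.6 CPM on 4, 8 and 8 UMIs, beside 377, 474 and 473 of the macrophage growth factor receptor gene Csf1r.

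Outside the 4 clusters the share varied between kinds of cell. Cluster 6, led by interferon and chemokine genes, was 12.6% high-mitochondrial, cluster 11, led by Mmp12 and Spp1, 23.6%, and cluster 8, led by Axl and Cx3cr1, 19.0%. The dendritic-cell-like clusters 10 and 12 were at 1.83% and 8%, and cluster 2, led by Chil3 and Ly6c2, at 4.27%. Clusters 10 and 12 also had 3.34 and 3.10 times their libraries' median nuclear UMIs and cluster 2 had 1.99 times, against 1.30 to 1.87 in clusters 6, 8 and 11. Clusters 3 and 4 had 5.29% and 8.83% high-mitochondrial barcodes at 1.66 and 1.38 times, and cluster 7 had 23.6% at 1.34 times. Leading genes of cluster 7 were haemoglobin genes beside the macrophage genes C1qa, C1qc and Ms4a7. Erythroid markers had 12697 UMIs in low-mitochondrial barcodes at day 6, and 11 or fewer in each other class and day. The part of depth in the shares of these clusters was not tested.

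**Figure D5:**
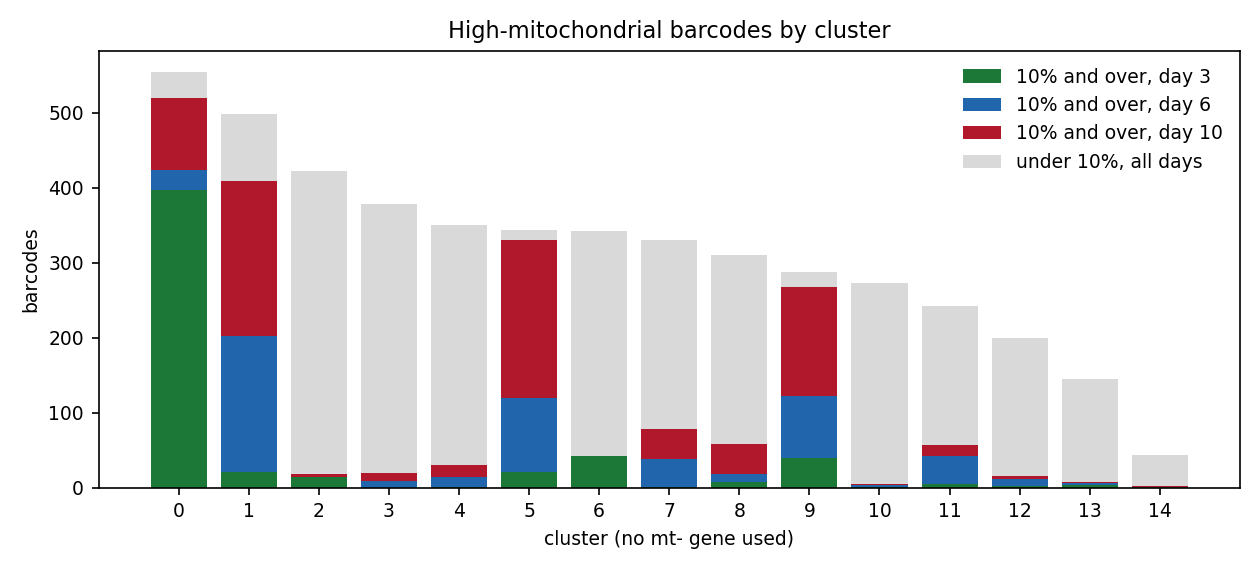
Barcodes per cluster, with high-mitochondrial barcodes stacked by day in colour and low-mitochondrial barcodes of all days in grey. Clusters 0, 1, 5 and 9 are mostly coloured, cluster 0 mainly by day 3 and the others mainly by days 6 and 10.

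Markers of several other cell types differed between the classes. The 9 fibroblast markers summed to 56.4, 203 and 233 CPM in high- against 4.7, 28.9 and 44.3 in low-mitochondrial barcodes, 12-, 7.03- and 5.26-fold higher, with Pdgfra, a defining receptor gene, at 0, 0 and 1 UMIs. Of thinned high-mitochondrial barcodes 0.397%, 4.07% and 4.13% held a UMI of the collagen gene Col1a1, against 0.112%, 0.855% and 0.601%. Skeletal muscle markers, on 41, 41 and 61 UMIs, were 5.21-, 3.55- and 6.10-fold higher. Endothelial markers were higher at day 6 only, at 14.1, 126 and 29.7 CPM against 20.5, 46.5 and 53.4. Natural killer and innate lymphoid markers summed to 8.81, 19.4 and 22.7 against 106, 182 and 139 CPM, in low-mitochondrial barcodes mostly Klrd1 (964, 1083 and 1359 UMIs), which is also among the leading genes of dendritic-cell-like cluster 10. Dendritic cell markers stood at 310.0, 559.6 and 512 CPM against 1032, 1332 and 926, or 3.33-, 2.38- and 1.81-fold lower. Neutrophil markers were at 259.8, 126 and 137 against 214, 278 and 153 CPM. Platelet markers summed to 674, 867 and 1004 against 739, 1870 and 2921 CPM. Most of these sums was Pf4, which is counted above as a mature macrophage gene, so they are not read as a difference in platelets. Haemoglobin and other erythroid markers were at 0.881, 4.16 and 0 CPM against 1.17, 1817 and 0.682. The part of other cells or of free RNA in the ratios above was not tested.

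Differences between days could be set side by side in the 2 classes, which come from the same 3 libraries and so share any library effect. From day 3 to day 10 interferon response genes were lower in both, with a median log2 of −2.42 in high- and −2.62 in low-mitochondrial barcodes, and 19 of 19 were at least 1.5-fold lower in each. Classical monocyte genes had medians of −2.24 and −1.77. Medians of mature macrophage genes were 0.69 and 1.44, of lipid-associated macrophage genes 0.39 and 1.19, of hypoxia response genes 0.03 and 0.72, and of MHC class II genes 0.97 and 0.25, with 0.10 and 0.11 over all genes. By marker, Ly6c2 had a log2 ratio of −3.74 and −3.01, C1qa 1.91 and 2.11, Arg1 0.60 and 1.76, Mmp12 1.42 and 3.17, and Cd209a 1.71 and −0.18. Day 10 over day 3 thus had the same sign in both classes for the first 4, and whether its size differed between the classes was not tested.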

How the data were processed

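Monocytes and macrophages of mouse skin wounds were measured by 10x single-cell RNA sequencing, with 1 library each at days 3, 6 and 10. The authors deposited UMI counts per gene and barcode, made with Cell Ranger 3.0.2 on mm10 per the submitters' processing notes. Whether barcodes had been filtered before deposit, and the annotation release, are not given in the sources used here.

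From the counts, barcodes with at least 200 genes were split at 10% of UMIs from the 13 mt- genes, which were then left out of all totals. Counts were summed per class and library and divided by the summed nuclear UMIs (CPM). The ratio, high- over low-mitochondrial, has an exact conditional binomial 95% interval, with sums under 3 UMIs set to 3. UMIs of a barcode are not independent molecules drawn from separate animals, so intervals cover counting error only. A gene was measured with at least 20 UMIs in each library and called at 1.5-fold in all 3. Shares have Clopper-Pearson intervals. Within-cluster ratios reweight the low-mitochondrial barcodes to the cluster makeup of the others. Scripts were tested on simulated data.

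All barcodes with at least 200 genes were clustered together (scanpy 1.11.5, leidenalg 0.10.2, 2000 variable genes without mt- genes, 30 components, 15 neighbours, resolution 0.8, no integration). A cluster was named only from listed markers, and a difference from the study's own types may come from these rebuilt names. Scrublet marked 5, 1 and 0 barcodes, too few to have worked, so doublets were kept and may be present. Scaling factors came from edgeR 4.0.16 (TMM) and DESeq2 1.42.0 (median of ratios), used for no test. Transcript lengths and coordinates are from GENCODE vM21 (GRCm38, the build called mm10), matched by identifier for 31011 of 31053 genes.

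The barcodes, markers and gene lists were chosen with earlier results of these data known. Named genes are the 5 markers, the 2 highest and 2 lowest members of each list, and the 12 highest and 12 lowest genes with at least 100 CPM that were called in all libraries; histone genes, the genes given per cluster and further called members of a list were added after values were seen. Alternatives changed the mitochondrial limit, the gene minimum, doublets, weighting, depth, scaling, low-count filter, clusters and libraries.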

Additional observations from a re-analysis of the deposited data

How the results depend on the processing

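The share of high-mitochondrial barcodes at days 3, 6 and 10 was 55.9%, 61.1% and 51.3% at a limit of 5%, 29.3%, 35.2% and 26.2% at 15%, 19.6%, 25.7% and 18.2% at 20%, and 34.0% at day 10 with at least 500 genes. Their median nuclear UMIs relative to the other barcodes were 0.214 at day 6 and 0.199 at day 10, and became 0.253 and 0.294 at day 6 at limits of 15% and 20%, and 0.215 at day 10 at 20%. Against 1985 higher and 956 lower genes, the counts were 807 and 1899 with TMM factors, 807 and 1887 with median-of-ratios factors, 3071 and 557 without Malat1 and the ribosomal RNA-like models in the totals, and 317 and 398 within clusters. There were 1267 higher and 879 lower genes with at least 100 UMIs, 3460 and 956 with at least 3 UMIs, and 457 lower genes at a limit of 5%. A gene at the floor of 3 UMIs in both classes counts as higher, since the low-mitochondrial totals are larger. The 3460 is therefore not read as a result. Leaving out 1 library in turn gave 2264 to 2740 higher and 1113 to 1320 lower genes, since fewer libraries had to pass. High-mitochondrial barcodes in clusters over 75% high were 81.9%, 62.4% at resolution 0.4 and 71.7% at 1.2.

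Within clusters, where 454, 281 and 570 high-mitochondrial barcodes could be compared, the log2 ratio changed sign for Cd209a at day 3 (0.58), Arg1 at days 6 and 10 (0.40 and 0.041), the list medians of hypoxia response (0.022), resident dermal macrophage (−0.25), alternative activation (0.27) and inflammatory cytokines (0.10), and, by the median of 3 days, Maf (−0.13), H2-Ab1 (0.21), H2-Oa (2.69), Klrd1 (1.99), Cd163 (−0.065), Mgl2 (0.15), Socs3 (0.34), Il10 (0.11), Cbr2 (−1.22), Trp53inp1 (−0.21), Gm9733 (0.73), Zfp36 (0.18) and Osm (0.33). Without clusters 10 and 12, a setting chosen after seeing the data, it did for Cd209a at days 6 and 10 (0.32 and 1.44), H2-Ab1 (0.66), H2-Oa (1.30), Klrd1 (0.30) and Mgl2 (0.24). Ccl5 did at a limit of 5% (0.12) and Ccnb2 at 20% (0.14). Only ratios of at least 1.5-fold in the main setting were screened for a change of sign, so smaller ratios that changed sign are not listed. Some of the listed values rest on few UMIs. Cd209a at day 3 within clusters sat at the floor of 3 UMIs. H2-Oa had fewer UMIs than that floor in all high-mitochondrial barcodes at days 3 and 10. Klrd1 had 7, 11 and 10 UMIs in them at days 3, 6 and 10. No direction is read for H2-Oa, Klrd1 or Cd209a at day 3. Some clusters had few low-mitochondrial barcodes, with 22 in cluster 0 at day 3 and 10 and 12 in clusters 0 and 9 at day 10. The cause of the changes of sign was not tested.

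A change of sign was counted only where the main ratio was at least 1.5-fold. Smaller ratios that changed sign are counted as stayed or moved. For 116 genes, 1000 of 1508 alternative values stayed within the spread of the 3 libraries, 489 moved and 19 changed sign. For 34 lists, 289 of 442 stayed, 149 moved and 4 changed sign. For the 5 markers per day, 92 of 195 stayed within the counting interval, 98 moved and 5 changed sign. C1qa on each day and Mmp12 at days 3 and 6 are not among these, though their smaller ratios changed sign in some settings. Depth limits the shares of barcodes with a UMI, of which 28 of 45 moved when the thinning changed. High- and low-mitochondrial barcodes were compared within each library, so every ratio is already paired by library, and no test was run on the 3 pairs because the classes were chosen by a measured value. Between days, no paired analysis was possible because each day has 1 library. No result rests on replicate animals, and differences between days cannot be told apart from differences between libraries.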
